A study of Mus musculus with 2 samples.

Results

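The 6 STAT transcription factor genes Stat2, Stat3, Stat4, Stat5a, Stat5b and Stat6 were described in mouse megakaryocytes, the cells that form platelets, by the open chromatin around them. They were 6 of 21755 protein-coding genes, and their members were the peaks that overlapped a gene body or lay within 50 kb of it. This rule took 123 of 108744 listed peaks in replicate 1 and 131 of 114484 in replicate 2. After merging, 80 regions were present in both replicates, of 69539 such shared regions in the genome. ATAC-seq, which inserts sequencing adapters into accessible DNA with a transposase, had been run on 2 samples of 50000 primary cells each. Both samples came from adult male C57BL/6J mice aged 5 to 6 weeks and formed 1 group, with no treatment or genetic change named in the labels. They were separate biosamples with the same donor record, so SDs over n = 2 measure only the spread between these samples, which may be technical. No second cell type or condition was analysed here.

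STAT proteins wait in the cytoplasm, are phosphorylated by Janus kinases bound to cytokine receptors, pair through their SH2 domains and move to the nucleus, where they bind gene promoters and enhancers. STAT2 carries the interferon response together with IRF9, STAT3 responds to the interleukin-6 family, STAT4 to interleukin-12, STAT5A and STAT5B to thrombopoietin and other growth cytokines, and STAT6 to interleukin-4. In megakaryocytes, thrombopoietin signals through STAT3 and the STAT5 pair. ATAC-seq shows whether the DNA of these genes is accessible. It does not measure RNA, protein or phosphorylation.

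Each value is the authors' fold enrichment of a peak, that is, the signal at the peak over its local background, and the highest peak stands for a region. The lists gave no read counts, so the depth is unknown, and a region absent from a list is one not detected at that depth. The median fold enrichment of all merged regions was 6.65 in replicate 1 and 7.01 in replicate 2. No scaling between the samples is stated. Of the markers used to check the cell label, 7 of 18 megakaryocyte genes had a shared promoter region (within 500 bp of a start), among them Itga2b (13.5 ± 0.584, SD, n = 2) and Vwf (9.39 ± 0.348). That share, 38.9%, was below the 59.8% of all protein-coding genes with such a region. No shared one was found at Gp1ba, Gp1bb, Gp5, Gp6, Gp9, Ppbp, Clec1b, Treml1, Selp or Tubb1, with 1 further marker in this state. Other cell types' markers had such a region in 9 of 10 neutrophil, 5 of 8 macrophage and 4 of 8 erythroid genes, and in 0 of 7 lymphoid and 0 of 6 hepatocyte genes. The folds of each list summed, in replicates 1 and 2, to 56.6 and 54.8 for megakaryocyte genes, 70.4 and 67.5 for neutrophil genes, 46.9 and 46.8 for macrophage genes, and 30.3 and 30.6 for erythroid genes. These lists hold 18, 10, 8 and 8 genes, so the sums do not rank the cell types. The sum over the 18 megakaryocyte genes was below that over the 10 neutrophil genes in both replicates. What part other cells had in the STAT regions was not tested.

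The DNA just before the starts shows how unlike these promoters are. The stretches below are from RefSeq (GRCm38.p6, the build called mm10), each the 250 bases before a RefSeq start on the strand of the gene, 5′ to 3′. They are shown because Stat2 had the strongest promoter region of the 6 genes, Stat4 the weakest, and Stat3 and Stat6 lay between. Capitals mark matches, on either strand, to the core of the interferon-stimulated response element (ISRE, GAAA and GAAA with 2 bases of any kind between), to a wide STAT site (TTC and GAA with 4 bases between) and to TGTGGT (a RUNX core). The Stat2 stretch is chr10:128270248-128270497 (plus strand), the Stat3 stretch chr11:100939541-100939790 (minus strand) and the Stat6 stretch chr10:127642736-127642985 (plus strand). Stat4 has 2 RefSeq starts, with the stretches chr1:51986898-51987147 and chr1:52007990-52008239 (both plus strand).
Stat2: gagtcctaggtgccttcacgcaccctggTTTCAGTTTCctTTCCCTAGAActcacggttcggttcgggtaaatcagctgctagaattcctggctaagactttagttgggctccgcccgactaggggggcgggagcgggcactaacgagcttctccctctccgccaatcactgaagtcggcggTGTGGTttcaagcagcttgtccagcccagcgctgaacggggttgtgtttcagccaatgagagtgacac
Stat3: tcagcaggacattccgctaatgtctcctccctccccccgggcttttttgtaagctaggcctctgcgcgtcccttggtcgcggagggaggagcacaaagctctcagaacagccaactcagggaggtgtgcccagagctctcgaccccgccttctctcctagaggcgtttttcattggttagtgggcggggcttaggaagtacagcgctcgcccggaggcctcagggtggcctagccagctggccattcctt
Stat6: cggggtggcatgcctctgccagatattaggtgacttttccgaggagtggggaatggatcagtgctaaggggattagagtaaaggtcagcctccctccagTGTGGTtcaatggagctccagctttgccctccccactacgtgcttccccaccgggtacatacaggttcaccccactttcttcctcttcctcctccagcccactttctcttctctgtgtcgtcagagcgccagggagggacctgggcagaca
Stat4, first start: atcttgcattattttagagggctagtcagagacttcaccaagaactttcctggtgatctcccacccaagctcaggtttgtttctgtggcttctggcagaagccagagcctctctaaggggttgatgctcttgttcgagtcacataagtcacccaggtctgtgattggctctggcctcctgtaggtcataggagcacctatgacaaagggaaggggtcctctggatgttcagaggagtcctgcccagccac
Stat4, internal start: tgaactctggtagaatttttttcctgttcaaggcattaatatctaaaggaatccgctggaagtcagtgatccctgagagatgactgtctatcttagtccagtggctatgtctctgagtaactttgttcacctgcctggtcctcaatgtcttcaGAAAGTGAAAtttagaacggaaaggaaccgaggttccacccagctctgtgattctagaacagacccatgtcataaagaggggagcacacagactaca
The Stat2 stretch held an ISRE core, read on the minus strand, and a wide STAT site, at positions -222 and -210 from the start. The ISRE core occurred in 3.44% of the 32851 RefSeq promoters of 300 bases (250 before and 50 after the start), the wide STAT site in 6.95% and TGTGGT in 16.8%. The ISRE core at the internal start of Stat4 lay at position -97, in a promoter that overlapped no shared region. The Stat6 stretch held TGTGGT alone and the Stat3 stretch none of the 3 patterns. A match describes the letters only.

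At least 1 annotated transcript start of each of the 6 genes had a shared region nearby (within 500 bp), against 59.8% of all protein-coding genes. A gene with more starts has more chances to meet this rule, and the 6 genes have 40 starts. Of these, 21 (52.5%) had a region nearby. Over all coding genes it was 53.8% of starts of protein-coding transcripts and 42.0% of other starts. At the 5′ end alone, 4 of the 6 genes had a region. The share of all coding genes under that rule is not given here, so this count has no background beside it. Among all protein-coding genes with a region within 500 bp of any start, the median fold enrichment was 11.5. Stat2, Stat5a and Stat3 lay above it and Stat5b, Stat6 and Stat4 below. Stat3 was above it only by an internal region at retained-intron starts, and its region at protein-coding starts (10.96) was below. By fold enrichment, the order of the 6 strongest values was the same in both replicates, and no gene's pair of values overlapped the pair of the next. The highest was 2.97 times the lowest in replicate 1 and 3.24 times in replicate 2. With 2 values a gene, no test of these differences was made.

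**Figure D1:**
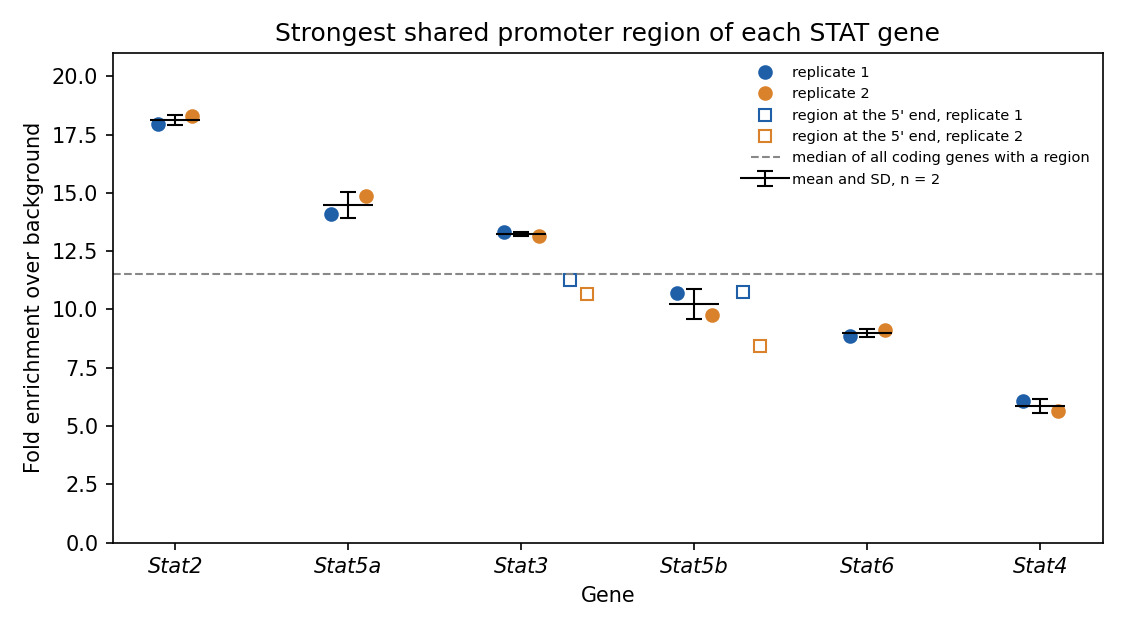
Fold enrichment of the strongest shared promoter region of each STAT gene in replicates 1 and 2 (filled points), with the mean and SD (black), and of the region at the 5′ end of Stat3 and Stat5b where this is another one (open squares). Stat2 stood highest at 17.96 and 18.29 and Stat4 lowest at 6.05 and 5.64. The dashed line is the median of 11.5 over coding genes with a region.

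Stat2, the interferon partner of IRF9, had the most accessible promoter. Its region at the 5′ end, chr10:128270146-128271148, reached 17.96 in replicate 1 and 18.29 in replicate 2, with a mean of 18.1 ± 0.231 (SD, n = 2). That is the 95.8th percentile of coding promoters with a region. A second region inside the gene, chr10:128283843-128284493, overlapped the start of a retained-intron transcript and reached 7.40 and 5.21 (6.31 ± 1.55). The first was 2.43 times the second in replicate 1 and 3.51 times in replicate 2. The gene body, chr10:128270559-128292849, held no distal region, meaning one more than 1 kb from every annotated start of any gene. Of the 7 starts of Stat2, 4 had a shared region within 500 bp.

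Stat3, the target of interleukin-6 family receptors, had its highest promoter fold enrichment away from its 5′ end. The gene occupies chr11:100885098-100939540 on the minus strand. The region at its 5′ end, chr11:100939187-100940191, reached 11.25 and 10.67 in replicates 1 and 2 (10.96 ± 0.411). An internal region, chr11:100893470-100893838, reached 13.31 and 13.16 (13.2 ± 0.105, the 66.0th percentile). It lay 45.9 kb into the gene at 2 starts of retained-intron transcripts and overlapped no start of a protein-coding transcript. By fold enrichment, the internal region was the higher of the pair in both replicates, by 1.18 and 1.23 times, and the values did not overlap. The 5′ region was wider (1005 against 369 bp), and the authors' peak p-values were smaller there in both replicates. Of 14 starts, the 4 of protein-coding transcripts all had the 5′ region, and 2 of the 10 others had the internal one.

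Stat5a and Stat5b, the close relatives that respond to thrombopoietin, lie head to head on chromosome 11 with 8.63 kb between their 5′ ends. Stat5a (chr11:100859351-100885169, plus strand) had 1 promoter region, chr11:100860155-100860904, with 14.09 in replicate 1 and 14.86 in replicate 2 (14.5 ± 0.543, the 76.6th percentile). It was not at the outermost 5′ end. The first 2 starts of the gene had no shared region within 500 bp, the start after them was 499 bp from the region, just inside the limit, and the 3 starts from 0.994 to 1.134 kb into the gene lay within it. Stat5b (chr11:100780731-100850724, minus strand) had 2. The region at its 5′ end, chr11:100850252-100850847, gave 10.73 and 8.45 (9.59 ± 1.61). The region at an internal protein-coding start 28.2 kb downstream, chr11:100822288-100822888, gave 10.70 and 9.77 (10.2 ± 0.657, the 38.03rd percentile). These pairs of values overlapped, so the 2 promoters of Stat5b were not separated. Both values of Stat5a were above all 4 of Stat5b.

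The internal Stat5b start and the Stat5a start in the open region share sequence. Of the 36 pairs among the 9 RefSeq starts of the 6 genes, compared over every ungapped stretch of 30 bases, this pair was the most alike with 28 of 30 bases identical (93.3%). The next pair reached 21 and the lowest 16. The best stretches are chr11:100822581-100822610 (Stat5b, minus strand) and chr11:100860435-100860464 (Stat5a, plus strand), shown with identical bases in capitals.
Stat5b, internal start: GCAGCTGACCTTTtAGaAGGAAATCGCTGC
Stat5a: GCAGCTGACCTTTgAGgAGGAAATCGCTGC
Both stretches lay inside shared regions. The Stat5b stretch lay outside annotated exons and the Stat5a stretch in an annotated exon of a transcript that starts farther upstream. Sequences before the 3 STAT5 starts follow, limited to bases outside annotated exons, so the Stat5a one ends before its matched stretch: the Stat5b internal start (chr11:100822571-100822820, minus strand), the Stat5b 5′ end (chr11:100850725-100850831, minus strand) and the Stat5a start (chr11:100860234-100860344, plus strand). They are shown because the 2 promoters of Stat5b had like accessibility on unlike DNA.
Stat5b, internal start, upstream: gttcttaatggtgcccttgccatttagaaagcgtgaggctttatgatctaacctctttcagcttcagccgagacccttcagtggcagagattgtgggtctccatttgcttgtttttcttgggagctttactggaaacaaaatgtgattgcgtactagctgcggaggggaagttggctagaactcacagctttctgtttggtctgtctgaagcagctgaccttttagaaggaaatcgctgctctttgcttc
Stat5b, 5′ end, upstream: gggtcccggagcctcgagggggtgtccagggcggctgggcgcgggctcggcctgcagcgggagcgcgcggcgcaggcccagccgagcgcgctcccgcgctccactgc
Stat5a, upstream: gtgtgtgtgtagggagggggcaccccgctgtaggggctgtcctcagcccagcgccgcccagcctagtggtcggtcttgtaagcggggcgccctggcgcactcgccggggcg
Over the 300 bases of the RefSeq promoter, G and C made up 82.7% at the Stat5b 5′ end and 47.3% at its internal start. None of the 7 patterns searched occurred in these 3 promoters.

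Stat6, the interleukin-4 responder, had a broad promoter of moderate fold enrichment. The authors' peak p-values were smaller at its 5′ end than at the internal Stat3 region and both Stat5b promoter regions, in both replicates. The gene spans chr10:127642986-127660957. A single region of 2317 bp, chr10:127641836-127644152, covered its 5′ end and held 8 listed peaks in replicate 1 and 7 in replicate 2. It was the widest of the 80 regions, whose median width was 450.5 bp, and wider than 99.99% of all shared regions. Its highest peak gave 8.88 in replicate 1 and 9.11 in replicate 2 (8.99 ± 0.161, the 27.8th percentile). The 3 internal starts of Stat6, all of retained-intron transcripts, had none within 500 bp.

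Stat4, which carries interleukin-12 signals in lymphocytes, had the least accessible promoter. No shared region lay within 500 bp of its 5′ end. The only promoter region of the gene, chr1:52008490-52008817, lay 21.1 to 21.5 kb into the gene at 2 internal starts, 247 bp from one and over the other. It gave 6.05 in replicate 1 and 5.64 in replicate 2 (5.85 ± 0.293, the 8.24th percentile). Replicate 2 alone listed another region beside it, at 2.75. The gene body, chr1:51987148-52107189, held 11 shared regions, 10 of them distal, which is the 97.7th percentile of coding genes for distal regions in the body. That percentile is of the count and is not corrected for length, and Stat4, at 120 kb, is the longest of the 6 genes. Per 100 kb of window, it stood at the 91.7th percentile for distal regions and the 79.0th for all shared regions. Of the lymphoid markers, 0 of 7 had a shared promoter region, and any link between that count and the Stat4 values was not tested.

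The starts differed by transcript type. Of the 16 starts that protein-coding transcripts of the 6 genes use, 13 (81.3%) had a shared region within 500 bp, against 53.8% of such starts in all coding genes. Of the 24 other starts, mainly of retained-intron transcripts, 8 (33.3%) had one, against 42.0% in all coding genes. The starts of a gene share regions, so these counts are not independent.

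CpG content was higher at the RefSeq starts whose 300-base promoter overlapped a shared region than at those whose promoter overlapped none, a stricter rule than a region within 500 bp. The observed over expected CpG ratio compares the CpG pairs in a promoter with the number its C and G content gives. It was 1.01 at the Stat5b 5′ end, 0.834 at Stat2, 0.80 at the open Stat5a start, 0.545 at Stat3, 0.421 at the internal Stat5b start and 0.325 at Stat6, whose promoters all overlapped a shared region. It was 0.253 and 0.104 at the internal and first starts of Stat4 and 0.202 at the other RefSeq start of Stat5a, whose promoters overlapped none. The internal Stat4 start and this Stat5a start did have a shared region within 500 bp. By overlap, the 6 starts with a region all had higher ratios than the 3 others. Over all RefSeq promoters, 82.4% of those with a ratio of at least 0.638 overlapped a shared region, 30.9% of those from 0.232 to 0.638 and 8.996% of those below 0.232. These limits divide the promoters into groups of about equal size.

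**Figure D2:**
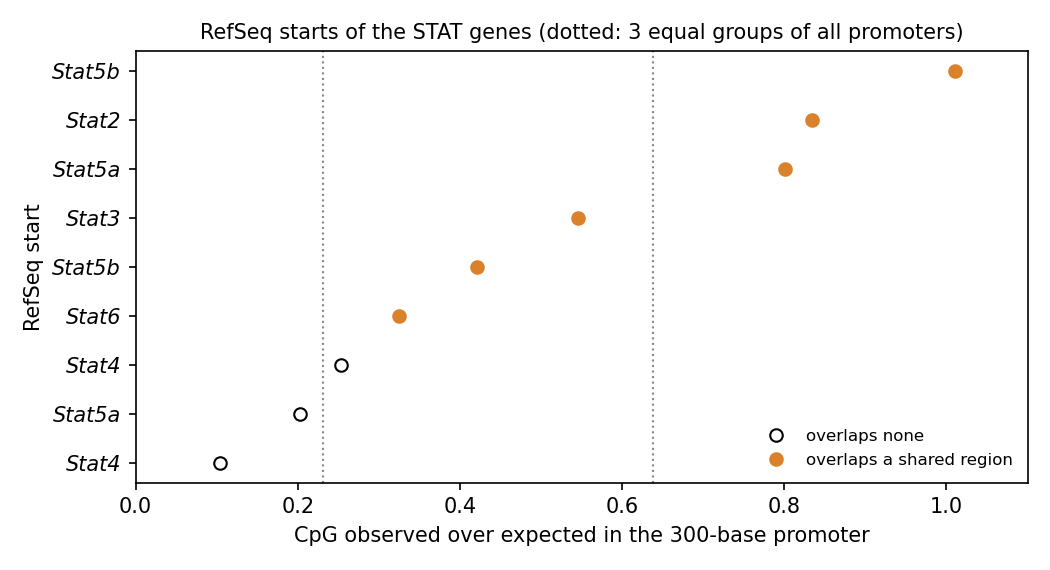
CpG observed over expected ratio (horizontal axis) of the 300-base promoter at each of the 9 RefSeq starts of the STAT genes, in rising order. Filled points overlapped a shared region and open points overlapped none. The 3 open points, at 0.104, 0.202 and 0.253, are the lowest, and the dotted lines mark 0.232 and 0.638, which divide all RefSeq promoters into 3 groups of about equal size.

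Of the 80 shared regions, 37 lay within 1 kb of a start of any gene and 43 were distal. Only 9 of the 37 lay within 500 bp of a start of a STAT gene, and the other 28 were near starts of neighbouring genes or farther than that from a STAT start. Introns held 30 regions (37.5%, against 36.4% of all shared regions), exons 5 and intergenic DNA 8 (10%, against 29.8%). The promoter share was 46.3%, against 29.9%. Every window holds a gene and its starts by the rule, so these shares are not like for like with those of the genome. The contrast in promoter and intergenic shares is therefore no result about the STAT genes. Of the 43 distal regions, 22 lay in a STAT gene body and 24 had a STAT start as the nearest start. The median mean fold was 7.71 for the distal regions, against 7.12 for all distal regions, and 6.98 for the promoter regions, against 8.92 for all promoter regions. The windows on chromosome 11 overlap, and 12 of the 28 shared regions there counted for 2 or 3 genes.

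**Figure D3:**
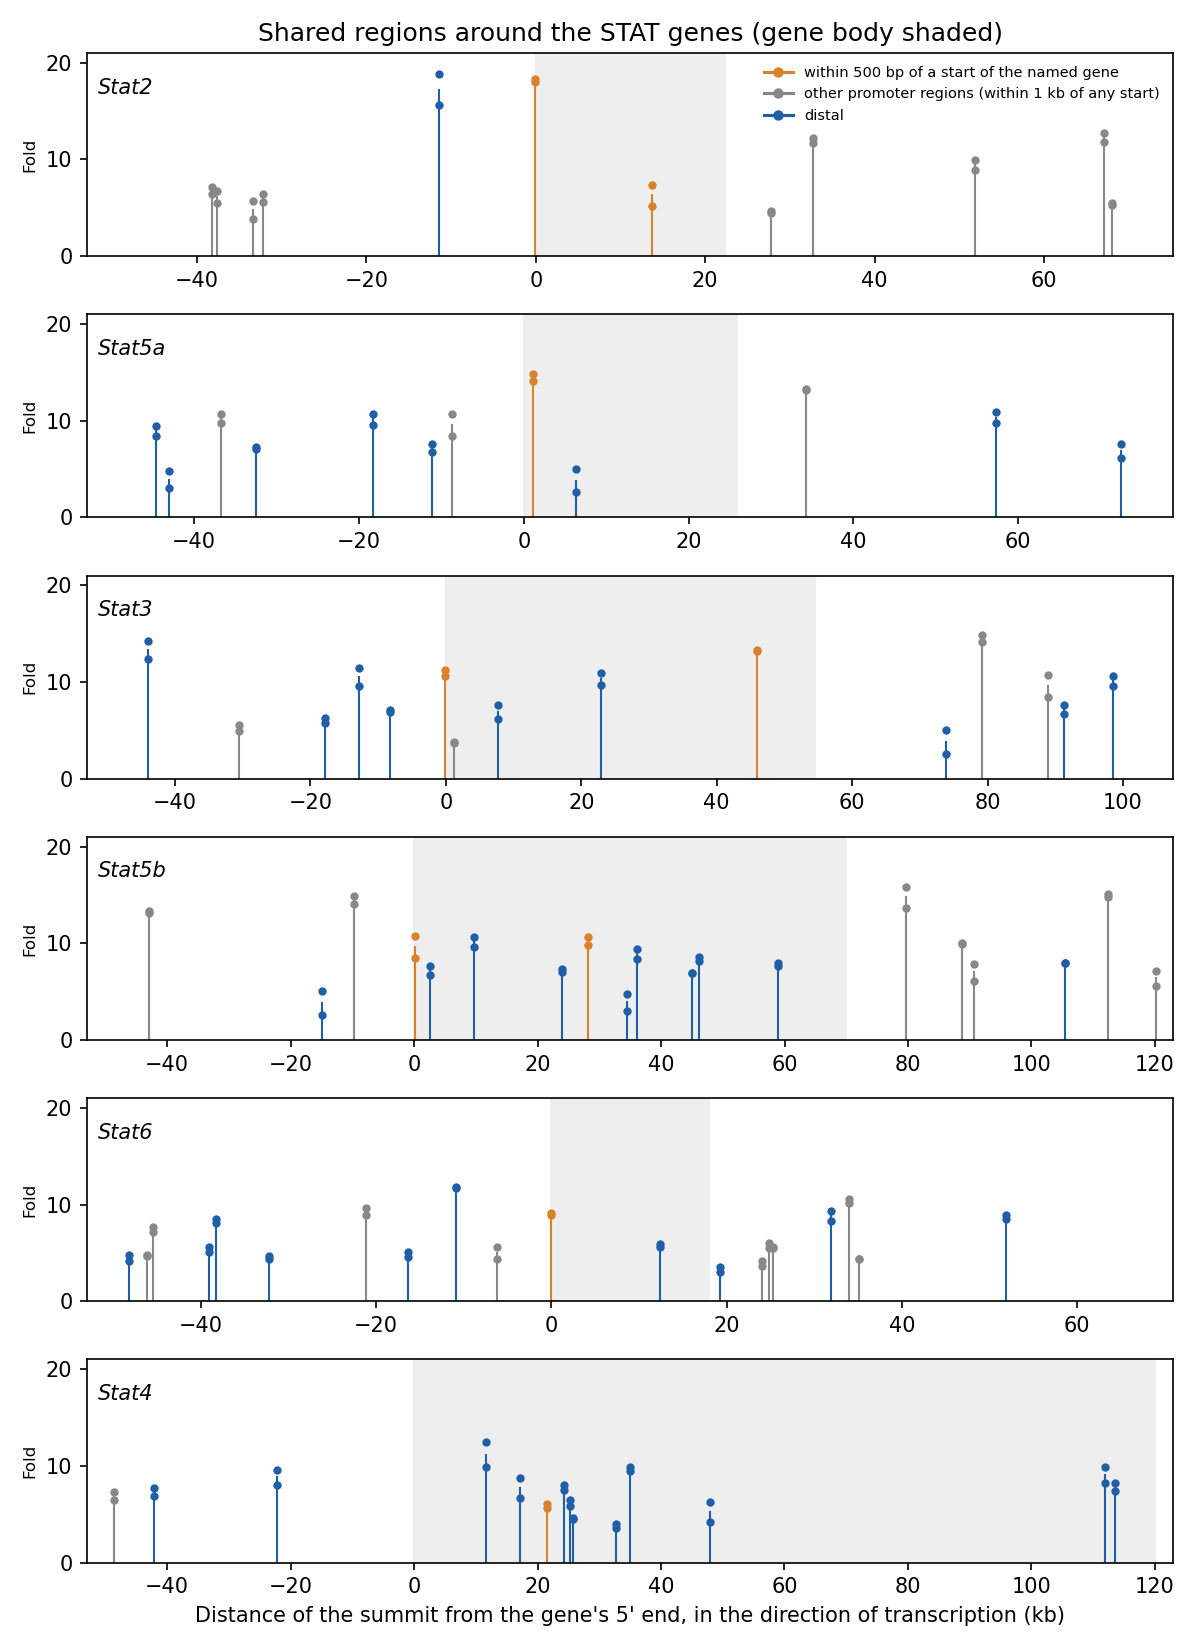
Fold enrichment of each shared region (2 points, 1 for each replicate, on a line to their mean) against the distance of its summit from the 5′ end of the gene, in kb along the direction of transcription, with the gene body shaded. Orange marks promoter regions of the named gene, grey other promoter regions and blue distal ones. Stat2 has a single distal region, while the bodies of Stat4 and Stat5b hold 10 and 8, and the stretch beyond the 3′ end of Stat4 is not drawn.

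The windows differed most in their distal regions. The window of Stat2 held 12 shared regions, of which 1 was distal. That of Stat3 held 15 with 9 distal, Stat5a 12 with 8, Stat5b 19 with 10, and Stat4 and Stat6 20 each with 16 and 10. Per 100 kb of window, Stat6 had the most at 17.0, the 98.8th percentile of coding genes. The others ran from 9.09 at Stat4 to 11.2 at Stat5b (the 79.0th to 88.5th percentile), against a median of 4.93 over all coding genes. For distal regions alone, per 100 kb, the percentile was 25.3 at Stat2, 84.3 at Stat3, 84.7 at Stat5b, 87.4 at Stat5a, 91.7 at Stat4 and 95.3 at Stat6. Of the 10 distal regions in the Stat6 window, 1 lay in the gene body and 1 had Stat6 as its nearest start, and the gene body alone held 2 of the 20 shared regions. In the body of Stat5b lay 8 of its 10 and in that of Stat4 10 of its 16. In 6 of the 20 regions of the Stat4 window the summit lay beyond the 3′ end of the gene, and these 6 are counted but not described.

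**Figure D4:**
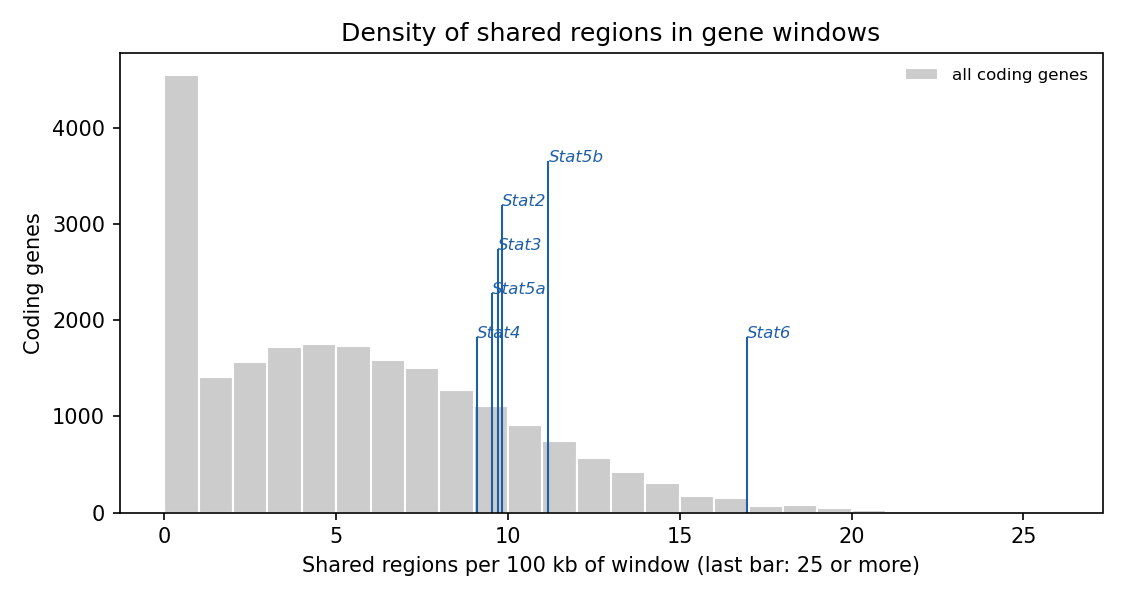
Number of coding genes (bars) by the shared regions per 100 kb of their window, the gene body with 50 kb on both sides, with the 6 STAT genes as blue lines whose heights carry no value. Stat6 lies at 17.0 and the other 5 between 9.09 and 11.2, all above the median of 4.93.

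The strongest distal region in the windows described was the one near Stat2. This region, chr10:128258903-128259518, lay in intergenic DNA 11.5 kb upstream of Stat2, with the start of Apon, an apolipoprotein gene, 4.93 kb away and nearer. It gave 15.6 in replicate 1 and 18.8 in replicate 2 (17.2 ± 2.27), the 99.0th percentile of distal regions. Its values overlapped those of the Stat2 promoter. In the Stat3 window the strongest was chr11:100983202-100983718, in intergenic DNA 44.1 kb upstream of the gene, with 14.2 and 12.3 (13.3 ± 1.32). Its nearest start was that of Cavin1, a caveola coat gene. A region 12.8 kb upstream of Stat3, chr11:100951915-100952577, gave 11.4 and 9.57. Another, in an intron of Stat3 22.9 kb into the gene, chr11:100916379-100916943, gave 10.9 and 9.72 and was also the strongest distal region in the window of Stat5a.

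An intron of Stat5b held the next strongest distal regions of the STAT5 pair. The one 9.70 kb into the gene, chr11:100840687-100841244, gave 10.7 and 9.60 (10.1 ± 0.751), and it lies 18.3 kb upstream of the 5′ end of Stat5a. A region 36.05 kb into Stat5b, chr11:100814348-100814896, gave 9.43 and 8.40. The next for Stat5b, 46.1 kb into the gene, chr11:100804421-100804986, gave 8.13 and 8.60. Stat5a had 1 distal region in its own body, with 2.60 and 5.03, the pair that differed most between replicates among the 80. The Stat6 window had its strongest distal region 10.9 kb upstream of the gene, chr10:127631389-127632358, with 11.9 and 11.7 (11.8 ± 0.0867). The next there were in exons, chr10:127674706-127675166 with 8.34 and 9.29 and chr10:127694754-127694998 with 8.89 and 8.50. In Stat4 the strongest distal region described was intronic, 11.6 kb into the gene, chr1:51998527-51998872, with 12.4 in replicate 1 and 9.88 in replicate 2 (11.2 ± 1.81). Both of its values exceeded both values of the Stat4 promoter region.

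The centres of some of these distal regions are shown on the plus strand, 70 bases on both sides of the summit of the stronger replicate. They are the strongest near Stat2 (chr10:128259008-128259148), in Stat4 (chr1:51998678-51998818) and in Stat5b (chr11:100840956-100841096), and 3 examples, chosen after their letters were seen, of centres with a pattern linked to STAT, GATA or interferon factors. The examples are an intron of Lrp1, a lipoprotein receptor gene, within the Stat6 window (chr10:127604610-127604750), an intron of Stat3 (chr11:100931713-100931853) and an intron of Stat5b (chr11:100804524-100804664). Capitals mark TTCNNNGAA (the usual STAT dimer site, GAS) and the ISRE core on either strand. They also mark AGATAA for the GATA core, CGGAAG for an ETS core and TGTGGT for the RUNX core.
Upstream of Stat2: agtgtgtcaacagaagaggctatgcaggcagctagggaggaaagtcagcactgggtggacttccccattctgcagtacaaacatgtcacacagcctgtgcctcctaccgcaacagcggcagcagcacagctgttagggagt
Stat4 intron: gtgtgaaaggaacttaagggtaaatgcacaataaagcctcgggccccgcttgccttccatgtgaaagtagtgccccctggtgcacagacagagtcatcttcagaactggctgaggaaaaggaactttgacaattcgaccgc
Stat5b intron, strongest: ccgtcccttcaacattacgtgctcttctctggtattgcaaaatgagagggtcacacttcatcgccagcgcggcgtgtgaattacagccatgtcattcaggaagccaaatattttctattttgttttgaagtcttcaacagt
Lrp1 intron, Stat6 window: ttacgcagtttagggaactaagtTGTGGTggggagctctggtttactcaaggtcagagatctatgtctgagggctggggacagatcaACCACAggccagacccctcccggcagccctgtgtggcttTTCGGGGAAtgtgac
Stat3 intron: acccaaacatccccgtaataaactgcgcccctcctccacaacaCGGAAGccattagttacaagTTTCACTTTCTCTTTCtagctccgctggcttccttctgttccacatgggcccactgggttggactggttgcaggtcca
Stat5b intron: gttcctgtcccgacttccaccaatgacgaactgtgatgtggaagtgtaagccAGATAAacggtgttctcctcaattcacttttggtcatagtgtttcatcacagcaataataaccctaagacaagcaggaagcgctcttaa
The Lrp1 intron held TTCNNNGAA 56 bases after the summit and TGTGGT on both strands. The Stat3 intron held the ISRE core 2 times, overlapping each other, on the minus strand at its summit, and gave 7.61 and 6.13 (6.87 ± 1.05). The strongest regions near Stat2, in Stat4 and in Stat5b held no ISRE, GATA, ETS or RUNX core and no STAT site of either spacing within 70 bases of the summit.

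The share of regions with a STAT site was near the background. TTCNNNGAA occurred within 100 bp of the summit in 5 of the 80 regions (6.25%), against 5.32% of all shared regions. None of the 5 lay in the body of a STAT gene. The 3 in the stretches described were the Lrp1 intron, a promoter region 6.2 kb upstream of Stat6 and an exon 17.9 kb upstream of Stat3. The wide STAT site occurred in 1 region (1.25%, against 4.58%) and the ISRE core in 2 (2.5%, against 3.46%). AGATAA occurred in 5 (6.25%, against 7.88%), CGGAAG in 8 (10%, against 11.1%) and TGTGGT in 13 (16.3%, against 21.97%). TGANTCA, the AP-1 site, occurred in 0 of 43 distal regions (10.7% of all distal regions) and in 4 of 37 promoter regions (10.8%, against 5.65%). With so few regions, none of these shares was tested, and no factor's binding was measured.

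The replicates gave close values. Of the regions in the windows, 94.2% in replicate 1 and 92.0% in replicate 2 were shared, against 89.3% and 86.2% over the genome. The ratio of replicate 2 to replicate 1 on the log2 scale was -0.02 in the median, with an SD of 0.24, over the 80 regions, and 77 of them (96.3%, against 96.4% of all shared regions) were within 1.5-fold. The summits of a region in the 2 replicates were a median of 8.5 bp apart. The 12 regions found in 1 replicate, 5 in replicate 1 and 7 in replicate 2, had folds from 2.67 to 4.66. All 80 shared regions were in the authors' replicated list of the pooled samples. That list rests on the same 2 samples and also held 7 of the 12 regions found in 1 replicate, so it is no separate check. Of the 80 regions, 49 were in both stricter lists thresholded on the irreproducible discovery rate (61.3%, against 53.3% of all shared regions). The strongest promoter region of each of the 6 genes was in both.

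**Figure D5:**
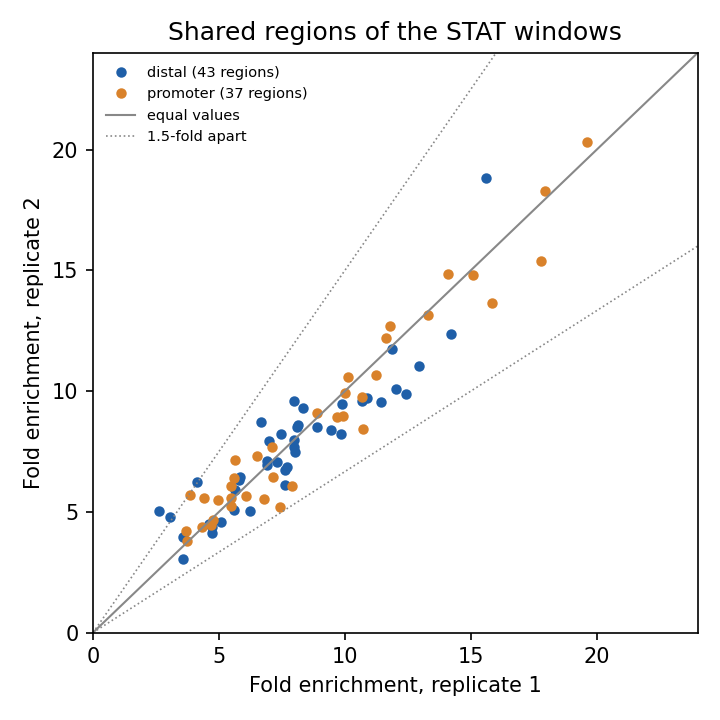
Fold enrichment of the 80 shared regions in replicate 1 (horizontal) and replicate 2 (vertical), with distal regions in blue and promoter regions in orange. The solid line marks equal values and the dotted lines 1.5-fold. Of the 80 points, 77 lie between the dotted lines.

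Most of 50 listed genes of the JAK-STAT pathway and its targets were accessible at their promoters. The list was chosen with earlier results of these data known, so its share describes the list and not the pathway. Of the 50 genes, 47 (94.0%) had a shared promoter region, against 59.8% of all coding genes, with a median fold of 10.2. All 4 Janus kinase genes had one, led by Jak1 (14.0 and 14.3 in replicates 1 and 2) and Tyk2 (14.3 and 14.0), a kinase of the interferon and interleukin-12 receptors. Among the receptors it was 15 of 18, led by the interferon receptor gene Ifnar1 (14.3 and 14.9) and by Il6st (13.8 and 14.4), the shared chain of the interleukin-6 family. Of the 3 receptor genes without a region in either replicate, Il12rb1 is a receptor chain for interleukin-12 and Osmr the oncostatin M receptor. All 18 inhibitors and phosphatases had one, led by Pias1 (18.9 and 19.99), which binds activated STAT proteins, and the phosphatase gene Ptpn1 (16.7 and 15.2). All 10 partners and targets had one, led by the kinase gene Pim2 (14.3 and 13.6) and by Irf9 (13.1 and 12.7), whose product pairs with STAT2. Among the 53 pathway and STAT genes with a promoter region, Stat2 ranked 2nd by mean fold, Stat5a 6th, Stat3 12th, Stat5b 27th, Stat6 35th and Stat4 47th. The rank of Stat3 rests on its internal region at retained-intron starts, and its region at protein-coding starts (10.96) is lower. Stat5a, Stat3, Stat5b, Stat6 and Stat4 each differed from a gene next in rank by less than the SDs between replicates, so their exact ranks are not firm. Only Pias1 ranked above Stat2.

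Neighbours of the STAT genes were open too, as were 59.8% of all coding genes. Of the other coding genes in each window, 5 of 8 had a shared promoter region around Stat2, 5 of 6 around Stat5b and 3 of 4 around Stat6. Stat3 and Stat5a are among those counted around Stat5b. The 3 of 3 around Stat3 were Cavin1, Stat5a and Stat5b, and the 2 of 2 around Stat5a were Stat3 and Stat5b. Apart from the STAT genes, the highest mean among the neighbours on chromosome 11 was at Rab5c, an endosome GTPase gene, with 15.1 and 14.8 (14.9 ± 0.197). The region at Ghdc, with 15.8 and 13.6 (14.7 ± 1.55), was higher in replicate 1, so these genes were not separated. Around Stat2 the highest mean was at Cs, the citrate synthase gene, with 11.8 and 12.7 (12.3 ± 0.644). Around Stat6 it was 10.1 and 10.6 (10.3 ± 0.31) near the start of Nemp1, a nuclear envelope gene. The region density of a window therefore counts neighbours' promoters together with those of the STAT gene.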

How the data were processed

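ATAC-seq peak lists of 2 megakaryocyte samples, 1 group, were used. Per the labels, the authors called peaks on mm10; aligner, peak caller and versions are not given in the sources used here. In the deposited lists, column 7 is a ratio, the fold enrichment of a peak (from the peak format, as no header defines it), and columns 8 and 9 are −log10 p-values and q-values. Per-sample pseudoreplicated lists were used, with the thresholded lists and 2 lists of the pooled series as alternatives. Peaks overlapping by 1 bp were merged, and regions overlapping by 1 bp between replicates on chromosomes 1 to 19 and X were shared. Genes and starts came from GENCODE M21, promoters from RefSeq GRCm38.p6, whose chromosomes held every peak. Python 3.11.15, numpy 2.4.6 and pysam 0.24.0 were used, and region merging was tested on simulated data. The rule named all 6 genes, their promoter regions and 3 strongest distal regions, and the 2 strongest genes of each pathway role. Members and lists were chosen with earlier results of these data known. No group comparison was possible, and no test was made. Some regions and genes that the rule would name are not reported here.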

Additional observations from a re-analysis of the deposited data

How the results depend on the processing

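Depth is unknown, so no region can be called closed from its absence, and no test was made on the 2 samples. With the lists thresholded on the irreproducible discovery rate, the 80 shared regions became 49, the 43 distal ones 22, the 5 regions with TTCNNNGAA 2, the median of 17 regions a gene 10, and the mean share found in both replicates (93.1%) 87.6%. A window of 20 kb gave 53 regions and a median of 10.5 a gene. The gene body alone gave 32 regions, 22 distal, 0 with TTCNNNGAA, a median of 3.5 a gene and a share of 90.3%. That share was 91.3% with 50% reciprocal overlap and 96.1% with peaks of at least 4-fold. TTCNNNGAA within 50 bp was in 2 regions, and the wide STAT site in its place in 1. The mean promoter fold of the 6 genes (11.8) was 12.5 in both the replicated and the conservative lists of the pooled series. With starts of protein-coding transcripts only, an alternative chosen after seeing the data, it was 11.4 and that of Stat3 fell from 13.2 to 10.96. With the 5′ end only, Stat4 and Stat5a had no promoter region, so the mean has no value there. Leaving out each replicate gave 86 to 87 regions, 47 to 48 distal, 4 to 6 with TTCNNNGAA, 18 to 18.5 a gene and a mean fold of 11.8; all 6 promoters remained open. The cause of these differences was not tested, apart from the smaller windows and shorter lists themselves. No paired analysis was possible because the series has 1 group.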
